A study of Mus musculus with 16 samples.

Results

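The MYC network genes described here are Myc, Mycn, Max, Mxd1, Mxd3, Mxd4, Mxi1, Mnt, Mlx and Mga, 10 of the 50686 gene rows counted in every library. They were chosen by name as the transcription factors that pair with MAX or with its relative MLX. All 10 were found by their Ensembl identifiers and all 10 passed the filter on low counts, which 14164 genes passed over the 4 groups of libraries. RNA was sequenced from immortalized pro-B leukemic cell lines of C57BL/6N mouse bone marrow, all of them transformed by the oncogene BCR-ABL1p185. In 4 lines Cdk8 carried loxP sites but was intact (Cdk8 fl/fl, called wildtype in the labels), and in the other 4 it was deleted by Cre under the Vav promoter, which is active in blood cells (Cdk8Δ/Δ Vav-Cre, here knockout). CDK8 is a kinase of the Mediator complex, and each line was grown for 48 h either in 0.01% DMSO or in 1 µM Senexin B, an inhibitor of CDK8 and of its paralog CDK19. This gave 4 groups of 4 libraries: fl/fl DMSO, fl/fl Senexin B, knockout DMSO and knockout Senexin B. The replicate number of a library was read as its line, since libraries of the same genotype and number deviated together from their group means. The sources used here do not say how many mice the lines came from, so the spread between lines may hold less than the spread between animals.

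MYC and its paralog MYCN bind the DNA sequence CACGTG (the E-box) and related sites together with MAX, and raise the transcription of genes for ribosome production, nucleotide synthesis and growth. The MXD proteins and MNT compete for MAX at the same sites and recruit SIN3 corepressors and histone deacetylases, so that the balance between both sides sets the output of the shared targets. MXD proteins are known to rise when blood cells leave the cell cycle and mature. MLX pairs with MondoA and ChREBP, which respond to glucose, as well as with some MXD proteins, and MGA holds MAX in a repressive Polycomb complex.

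Promoters are shown for Mxd4, the one member called in a comparison, and for Max and Mnt, whose levels did not overlap between genotypes in DMSO although neither passed the adjusted test. Each of the 3 windows contains an E-box. They are RefSeq windows of 300 bases on GRCm38.p6, from 250 bases before to 50 bases after the annotated start, written 5′ to 3′ on the strand of the gene with CACGTG in capitals. The Mxd4 window is chr5:34187661-34187960 on the minus strand, the Max window is chr12:76962199-76962498 on the minus strand and the Mnt window is chr11:74830674-74830973 on the plus strand.
Mxd4: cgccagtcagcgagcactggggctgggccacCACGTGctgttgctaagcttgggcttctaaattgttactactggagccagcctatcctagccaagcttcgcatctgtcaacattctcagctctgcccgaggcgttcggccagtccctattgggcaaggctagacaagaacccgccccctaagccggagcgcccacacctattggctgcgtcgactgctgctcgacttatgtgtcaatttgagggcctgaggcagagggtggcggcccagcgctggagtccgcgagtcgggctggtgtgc
Max: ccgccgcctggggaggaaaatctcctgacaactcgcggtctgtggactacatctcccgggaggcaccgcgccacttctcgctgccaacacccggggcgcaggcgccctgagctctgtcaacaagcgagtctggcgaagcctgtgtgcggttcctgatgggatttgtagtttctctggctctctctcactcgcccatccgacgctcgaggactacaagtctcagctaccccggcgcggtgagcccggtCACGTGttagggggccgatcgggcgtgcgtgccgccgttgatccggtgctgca
Mnt: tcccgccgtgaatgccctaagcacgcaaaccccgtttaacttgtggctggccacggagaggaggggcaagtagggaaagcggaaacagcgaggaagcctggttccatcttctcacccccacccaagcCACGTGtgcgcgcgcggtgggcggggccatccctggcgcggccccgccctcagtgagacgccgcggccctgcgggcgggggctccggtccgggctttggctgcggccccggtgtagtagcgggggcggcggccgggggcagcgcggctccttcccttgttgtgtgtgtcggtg
The E-box began 219 bases before the start in Mxd4, 123 bases before it in Mnt and 3 bases before it in Max. Mlx also held 1, beginning 40 bases before its start. CACGTG reads the same on both strands and was searched for by its letters alone. It was present in 4 of the 9 members with a window and in 8.09% of all 27025 genes with a window. The windows of Mxd1, Mxd3, Mxi1, Mga and Mycn did not contain these letters.

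Between 13145876 and 18349425 reads were counted on genes per library. Levels are given as CPM, counts per 1000000 counted reads after scaling with edgeR's TMM factors. A gene was called where its p, adjusted by the Benjamini-Hochberg method over all genes tested, was under 0.05 and it changed by more than 2-fold. All 9 markers of pro-B and pre-B cells that were listed, Pax5, Ebf1 and Igll1 among them, were above 10 CPM in every library. Of 6 T-cell markers, the kinase gene Lck alone reached 1 CPM (17.5 to 133 CPM), Cd3g had no counts and the list summed to 17.6 to 133 CPM. Of 6 myeloid markers, Lyz2 alone reached 1 CPM, at up to 24.6 CPM, and Elane had no counts; 6 erythroid and megakaryocyte markers summed to at most 1.97 CPM. Cdk8 RNA was 68.7, 61.8, 63.3 and 65.8 CPM in the fl/fl DMSO libraries and 35.3, 52.1, 47.1 and 42.8 CPM in the knockout DMSO libraries. These groups did not overlap, while with Senexin B knockout line 2 (61.7 CPM) lay above fl/fl lines 2, 3 and 4 (56.3, 56.8 and 55.2 CPM). Counts cover the whole gene, including exons outside the deleted part. Where in the gene the remaining reads of the knockout lines lie was not tested.

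Myc was on average by far the most abundant member per kilobase of annotated exon, and the repressors were scarce on this scale. Exon length here joins all annotated exons of a gene (2717 bases for Myc, 15340 for Mga). The lengths of the RNAs present were not measured, so the order and the shares below depend on these gene models. Divided by exon length, mean levels over the 16 libraries were 230 CPM per kilobase for Myc, 51.4 for Mycn and 39.5 for Max. They were 17.7 for Mlx, 12.98 for Mnt, 11.9 for Mga, 8.38 for Mxi1, 7.42 for Mxd4, 6.77 for Mxd3 and 2.66 for Mxd1, in the same unit. Myc exceeded Mycn in all 16 libraries, but by little in fl/fl line 2 with Senexin B (104 against 98.2 CPM per kilobase). Max exceeded Mlx in 16, Mlx exceeded Mnt in 15 and Mxd3 exceeded Mxd1 in 16. Other neighbours in this order changed places between libraries: Mycn was above Max in 9 of 16, Mnt above Mga in 9, Mxi1 above Mxd4 in 8 and Mxd4 above Mxd3 in 7. MYC and MYCN RNA together made up 69.4% ± 3.59 (SD, n = 4 lines) of the summed length-scaled level of the 10 members in fl/fl DMSO and 71.8% ± 6.25 in knockout DMSO. The 4 MXD genes made up 7.83% ± 1.52 and 6.56% ± 1.23, respectively. For both shares the lines of the genotypes overlapped, with the MXD genes at 6.40% to 9.74% in fl/fl DMSO and 5.46% to 8.22% in knockout DMSO.

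**Figure D1:**
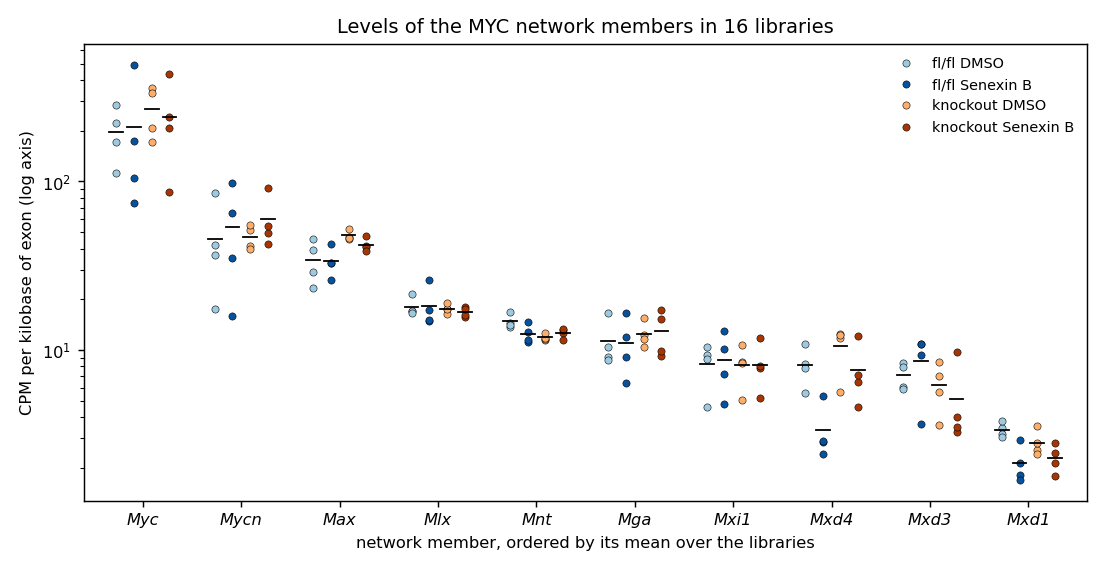
CPM per kilobase of exon (log axis) of the 10 MYC network members in 16 libraries, 1 point per library, coloured by group, with a bar at the mean of 4 lines. Myc is highest in every library, and the Mxd4 points with Senexin B in fl/fl lines are lower than those of the other groups, with 1 of the 4 above the lowest knockout point.

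Mxd4, a MAX-binding repressor, was the only member called in any comparison, and only when each line was compared with itself. It lies on chromosome 5 (ENSMUSG00000037235.13, minus strand, GRCm38 34173883 to 34187720). In the fl/fl lines 1, 2, 3 and 4 it was 70.5, 92.4, 66.2 and 47.1 CPM in DMSO. With Senexin B the same lines gave 24.1, 45.6, 20.6 and 24.6 CPM. Every fl/fl line was lower with the inhibitor, as was the case for 1292 of 14164 genes (9.12%). The highest treated library lay just under the lowest untreated one, and how many of all genes were separated in this way was not counted. The log2 fold changes by line were -1.51, -1.003, -1.64 and -0.91. With the line as a block, the log2 fold change was -1.29 (standard error 0.18, adjusted p = 0.0315 by edgeR's quasi-likelihood test). In this fit 24 of 12989 genes (0.185%) were called lower, and 1 of the 10 members was. Without the block, where lines are treated as unrelated, the value was -1.26 (standard error 0.29) with an edgeR adjusted p of 1.00, and 0 of 12989 genes (0%) were called, with 493 at an unadjusted p under 0.05 and 19 called by DESeq2. The blocked call was lost without line 2 (-1.38, edgeR adjusted p = 0.307) or without line 3 (-1.16, edgeR adjusted p = 0.163), while every one of these values stayed below -1. As in all bulk RNA, less Mxd4 RNA per cell and fewer cells that carry it cannot be told apart.

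The knockout lines were less uniform for Mxd4. They gave 105.4, 99.99, 104.5 and 47.9 CPM in DMSO for lines 1 to 4, so line 4 lay well under the other three. With Senexin B they gave 39.0, 54.8, 103.2 and 60.8 CPM. Lines 1 and 2 fell by 1.41 and 0.86 on the log2 scale, lines 3 and 4 differed by -0.02 and 0.34. The blocked log2 fold change was -0.49 (standard error 0.28, adjusted p = 0.591 by edgeR), and 0 of the 10 members were called, against 2 of 13285 genes (0.0151%) called lower. Without the block 0 of 13285 genes (0%) were called by edgeR, with 243 at an unadjusted p under 0.05, and 0 by DESeq2. Over the 8 lines Mxd4 was lower with Senexin B in 7, with a two-sided exact sign-flip permutation p of 0.0234 over the lines (unadjusted). That test treats the 8 lines as unrelated. The blocked log2 fold change over all 8 lines was -0.90 (standard error 0.22, edgeR adjusted p = 0.0537), which misses the limit. Without knockout line 3 or knockout line 4 it was -1.02 and -1.07, with edgeR adjusted p of 0.0452 and 0.0203, and was called. These are the lines that differed by -0.02 and 0.34. Leaving out any other line gave edgeR adjusted p between 0.0885 and 0.134, and Mxd4 was not called. In the fit over 8 lines with the block, 53 of 14164 genes (0.374%) were called lower, and without it 0 of 14164 (0%) were called by edgeR (688 at an unadjusted p under 0.05) and 17 by DESeq2.

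Whether the Mxd4 response depended on the genotype was not settled by these libraries. The interaction (knockout response minus fl/fl response) was 0.81 with the block (95% interval 0.0049 to 1.61, unadjusted p = 0.0488, adjusted p = 0.991 by edgeR) and 0.79 without it (unadjusted p = 0.12 by edgeR). A two-sided exact permutation test of the 4 line responses against the other 4 gave p = 0.114. This test treats the 8 responses as unrelated. Taken within line numbers, the knockout response was the higher in 4 of 4 pairs (by 0.10, 0.15, 1.62 and 1.25 on the log2 scale), with an exact sign-flip permutation p of 0.125, the smallest that 4 pairs allow. Such pairs join separate lines that carry the same number, so this p is a description. Across 14164 genes, responses relative to the genotype mean correlated with r = 0.69 between the lines of number 1. The lines of numbers 2, 3 and 4 gave -0.12, 0.25 and 0.29, and pairs with different numbers gave -0.54 to 0.29. What same-numbered lines of the genotypes share beyond the number was not tested. How many of all genes were higher in 4 of 4 pairs was not counted. Among the 10 members, Mnt and Mycn were also higher in 4 of 4 pairs, and Max was higher in 0 of 4. In the interaction fit without the block 0 of 14164 genes (0%) were called by edgeR, with 67 at an unadjusted p under 0.05, and 0 by DESeq2. With Senexin B present, Mxd4 was 64.5 ± 27.4 CPM in knockout lines and 28.7 ± 11.4 CPM in fl/fl lines (SD, n = 4). The log2 difference was 1.17 (standard error 0.36, adjusted p = 1.00 by edgeR), and the groups overlapped, with an exact permutation p of 0.0571. In that comparison 0 of 13010 genes (0%) were called by edgeR, with 202 at an unadjusted p under 0.05, and 10 by DESeq2.

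Mxd1, the founding MXD repressor, moved the same way as Mxd4 but by less, and in all 8 lines. The gene (ENSMUSG00000001156.9) is on chromosome 6. In fl/fl lines 1 to 4 it was 24.6, 22.6, 21.7 and 26.8 CPM in DMSO and 20.7, 12.9, 15.2 and 12.01 CPM with Senexin B. In knockout lines it was 25.2, 17.98, 19.8 and 17.1 CPM in DMSO and 19.9, 15.1, 17.4 and 12.7 CPM with Senexin B. The fl/fl groups did not overlap, while the knockout groups did, and the share of all genes without overlap between treatments was not counted. The sign-flip permutation p over 8 lines was 0.0078, the smallest that 8 lines allow. A gene lower in all 8 lines was not rare: 367 of 14164 genes (2.59%) were. The log2 fold change over 8 lines with the block was -0.49 (standard error 0.12, edgeR adjusted p = 0.0495). It passed the limit on p but not the 2-fold limit; without a fold limit 211 of 14164 genes (1.49%) were lower. Leaving out any 1 of the 8 lines took its edgeR adjusted p to between 0.0581 and 0.132. Within the fl/fl lines the blocked value was -0.67 (standard error 0.19, edgeR adjusted p = 0.266), and within the knockout lines it was -0.30 (standard error 0.11, edgeR adjusted p = 0.436).

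**Figure D2:**
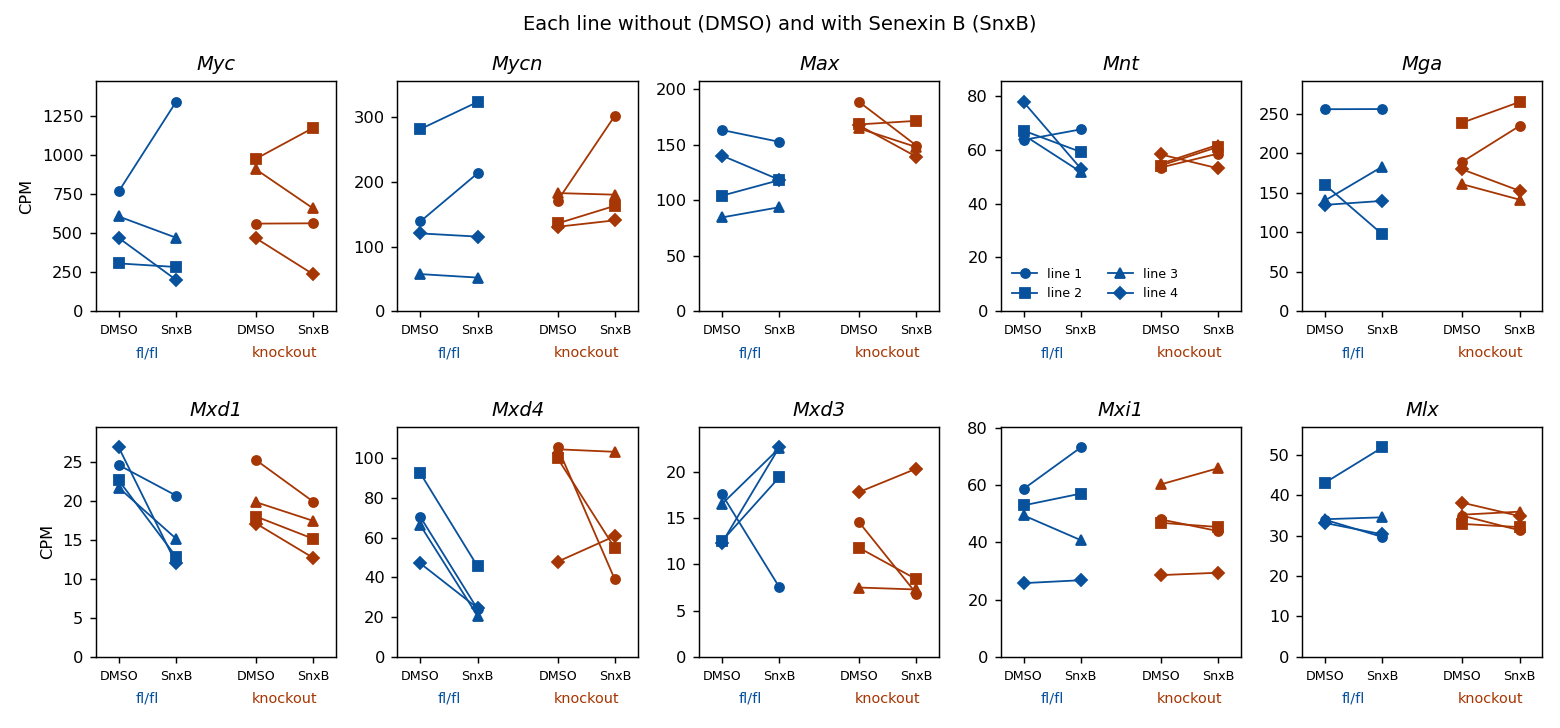
CPM of each of the 10 members in each line without (DMSO) and with Senexin B (SnxB), fl/fl lines in blue and knockout lines in orange, each line joined by a segment and its number given by the marker shape. Mxd1 falls along all 8 segments and Mxd4 along 7, while Myc and Mxd3 move in both directions.

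The other MXD family repressors did not move in the same direction in all lines. Mxi1 differed between lines (25.8 to 73.2 CPM over the 16 libraries) more than between treatments, and its 8 line responses gave a mean log2 difference of 0.02 (sign-flip permutation p = 0.68). Line 4 was lowest for Mxi1 in both genotypes and under both treatments, at 25.8 to 29.4 CPM. Mxd3, the MXD gene usually seen in dividing cells, was 17.6, 12.5, 16.5 and 12.3 CPM in fl/fl DMSO and 7.6, 19.4, 22.5 and 22.6 CPM in fl/fl Senexin B. In the knockout lines it was 14.5, 11.8, 7.5 and 17.8 CPM in DMSO and 6.8, 8.4, 7.3 and 20.3 CPM with the inhibitor. Its log2 response was -1.12 and -0.99 in line 1 of the fl/fl and of the knockout lines, and it was higher in the other 3 fl/fl lines. In the knockout lines it was lower in 3 of 4, with a blocked log2 fold change of -0.35 (edgeR adjusted p = 0.639), against -0.30 for Mxd1. Mxd3 shares 104 exonic bases with Prelid1 on the opposite strand, and counting ignored strand, so its counts are uncertain.

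Senexin B did not move Myc in 1 direction. Myc (ENSMUSG00000022346.15, chromosome 15, 61985391 to 61990374, plus strand) was 767, 306, 606 and 469 CPM in fl/fl DMSO and 1337, 284, 471 and 202 CPM in fl/fl Senexin B. In knockout lines it was 560, 975.1, 906 and 467 CPM in DMSO and 563, 1172, 657 and 237 CPM with Senexin B. The log2 responses thus ran from 0.80 in fl/fl line 1 to -1.21 in fl/fl line 4, with knockout line 4 at -0.98. The blocked log2 fold change was -0.21 (95% interval -0.89 to 0.46) in fl/fl lines and -0.29 (95% interval -0.75 to 0.17) in knockout lines, with edgeR adjusted p of 0.869 and 0.663. Their lower ends leave room for a sizeable fall in either genotype. Mycn (chromosome 12) was 139, 281, 57.5 and 120 CPM in fl/fl DMSO and 213, 323, 52.1 and 115 CPM in fl/fl Senexin B. It was 171, 136, 183 and 131 CPM in knockout DMSO and 302, 163, 180 and 140 CPM in knockout Senexin B. Line 1 again gave the largest gains, of 0.62 and 0.82 on the log2 scale, and fl/fl line 3 was lowest under both treatments.

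Line 1 of both genotypes thus stood apart in its response to Senexin B, and it did so across the transcriptome. Once the mean response of each genotype was subtracted, the responses of fl/fl line 1 and knockout line 1 correlated with r = 0.69 across 14164 genes, which are not independent replicates. Lines 2, 3 and 4 gave -0.12, 0.25 and 0.29 with the same number in the other genotype, and pairs with different numbers gave -0.54 to 0.29. Line 1 was left out for its responses in these same data, so p-values of fits without it are descriptions only. Without line 1 of both genotypes the blocked log2 fold changes of Mxd4, Mxd1 and Mxd3 in fl/fl lines were -1.21, -0.82 and 0.65, with edgeR adjusted p of 0.0041, 0.0237 and 0.0503. With all lines kept, these fl/fl values were -1.29, -0.67 and 0.22, with edgeR adjusted p of 0.0315, 0.266 and 0.878. In the knockout lines they were -0.18, -0.29 and -0.10, with edgeR adjusted p of 0.801, 0.494 and 0.878. The interactions without line 1 were 1.03 for Mxd4 (unadjusted p = 0.0063, adjusted p = 0.37 by edgeR), -0.75 for Mxd3, 0.54 for Mxd1 and 0.43 for Mnt (edgeR adjusted p = 0.417, 0.559 and 0.57), so none of these differences between genotypes was called. Myc was at -0.56 in fl/fl lines (edgeR adjusted p = 0.16) and at -0.39 in knockout lines (edgeR adjusted p = 0.565). Over the 6 remaining lines Mxd1 was at -0.56 (edgeR adjusted p = 0.0296) and Mxd4 at -0.69 (edgeR adjusted p = 0.107). What set line 1 apart was not tested.

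**Figure D3:**
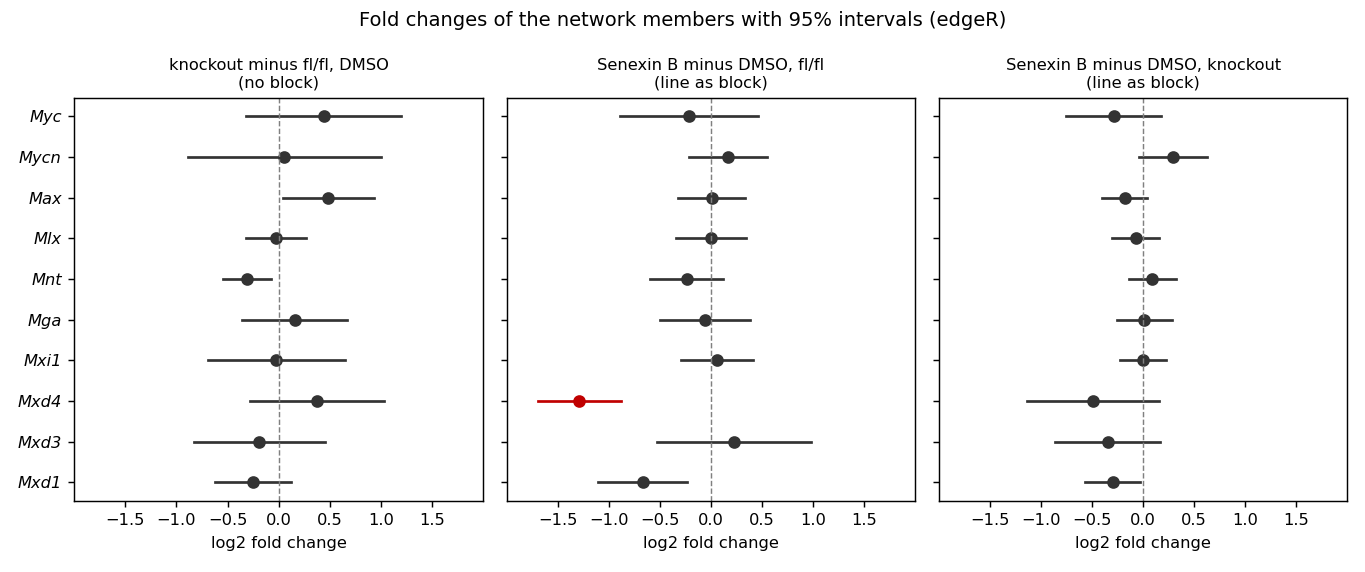
Log2 fold changes of the 10 members with 95% intervals from edgeR, for the knockout against the fl/fl lines in DMSO (left, no block) and for Senexin B against DMSO in fl/fl lines (middle) and knockout lines (right), both with the line as block, with called members in red. Mxd4 in fl/fl lines (-1.29) is the one called value, and the intervals of Max and Mnt for genotype lie on either side of 0.

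Without the inhibitor, the knockout lines had more Max and less Mnt RNA than the fl/fl lines, both by under 2-fold and neither past the adjusted test. Max (ENSMUSG00000059436.13, chromosome 12, 76937269 to 76962201, minus strand), the partner that MYC needs to bind DNA, was 163, 104, 84.6 and 140 CPM in fl/fl lines 1 to 4. It was 188.5, 168, 165 and 167 CPM in the knockout lines, above every fl/fl line. The log2 difference was 0.49 (standard error 0.20, unadjusted p = 0.0365, adjusted p = 0.897 by edgeR). Mnt (ENSMUSG00000000282.12, chromosome 11), the most widely expressed MAX-binding repressor, was 63.6, 67.1, 65.5 and 77.7 CPM in fl/fl lines and 53.4, 54.1, 54.8 and 58.2 CPM in knockout lines. Its log2 difference was -0.31 (standard error 0.10, unadjusted p = 0.0173, adjusted p = 0.897 by edgeR). For both genes the groups did not overlap, and the two-sided exact permutation p was 0.0286, the smallest that 4 lines against 4 allow. Groups of 433 of 14164 genes (3.06%) did not overlap in this comparison. At an unadjusted edgeR p under 0.05, 2 of 10 members stood beside 701 of 13174 genes (5.32%), and 0 members beside 1 gene (0.00759%) were called. Of the other 8 members, Myc was at 0.44 (95% interval -0.32 to 1.20), Mxd4 at 0.38 (95% interval -0.28 to 1.03) and Mxd1 at -0.25 (95% interval -0.63 to 0.12), and the rest lay between -0.19 and 0.16.

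With Senexin B in the medium neither difference was as clear. Both genes were singled out for their DMSO libraries, so a weaker difference in other libraries does not show that Senexin B changed it. Max was 153, 118, 93.7 and 118.5 CPM in fl/fl lines and 149, 172, 148 and 139 CPM in knockout lines, which overlap (exact permutation p = 0.114). Mnt was 67.5, 59.2, 51.8 and 53.0 CPM in fl/fl lines and 58.6, 61.1, 61.9 and 53.1 CPM in knockout lines, with means of 57.9 and 58.6 CPM. The Mnt responses were lower in 3 of 4 fl/fl lines and higher in 3 of 4 knockout lines. The difference between both sets of responses had an exact permutation p of 0.0571, so it misses the limit. These responses use the same DMSO libraries as the genotype difference in DMSO, so they are not a separate result. Within line numbers the knockout response was the higher in 4 of 4 pairs, by 0.05 to 0.50 (exact sign-flip permutation p = 0.125). As for Mxd4, these pairs join separate lines, and the share of all genes with this pattern was not counted. The knockout response of Mycn was also the higher in 4 of 4 pairs, and that of Max in 0 of 4. Each had an exact sign-flip permutation p of 0.125.

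The lower Max levels of fl/fl lines 2 and 3 moved with the other genes of chromosome 12, on which Max lies. Each gene was set relative to its own mean over the 16 libraries on the log2 scale, for 8744 genes of at least 10 CPM on average. The median of the 310 other genes of chromosome 12 was -0.41 in fl/fl line 2 and -0.71 in fl/fl line 3. In the other 6 lines it lay between 0.14 and 0.23. In fl/fl line 3, 301 of these 310 genes (97.1%) were below their own mean, against 42.4% of genes on the other chromosomes. In fl/fl line 2 the shares were 70.3% and 46.9%. In DMSO the median for chromosome 12 was 0.36 higher in knockout than in fl/fl lines, where Max itself differed by 0.52 on this scale. Of the other fl/fl lines in DMSO, line 1 (163 CPM) lay next to the lowest knockout line (165 CPM) and line 4 (140 CPM) lower. Mycn is on the same chromosome, and fl/fl line 3 was its lowest line while fl/fl line 2 was its highest in DMSO. For Mnt the other genes of chromosome 11 differed by -0.02 between genotypes, where Mnt differed by -0.30. For Mxd4 the other genes of chromosome 5 moved by -0.01 with Senexin B in fl/fl lines, where Mxd4 moved by -1.27. Genes of chromosome 13, which carries Mxd3, had medians of -0.29 and -0.25 in knockout lines 2 and 3, between -0.02 and 0.18 in the rest, and Mxd3 was lowest among the DMSO libraries in knockout line 3. DNA copies were not measured, and the part of these chromosome-wide levels in the genotype differences was not tested.

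**Figure D4:**
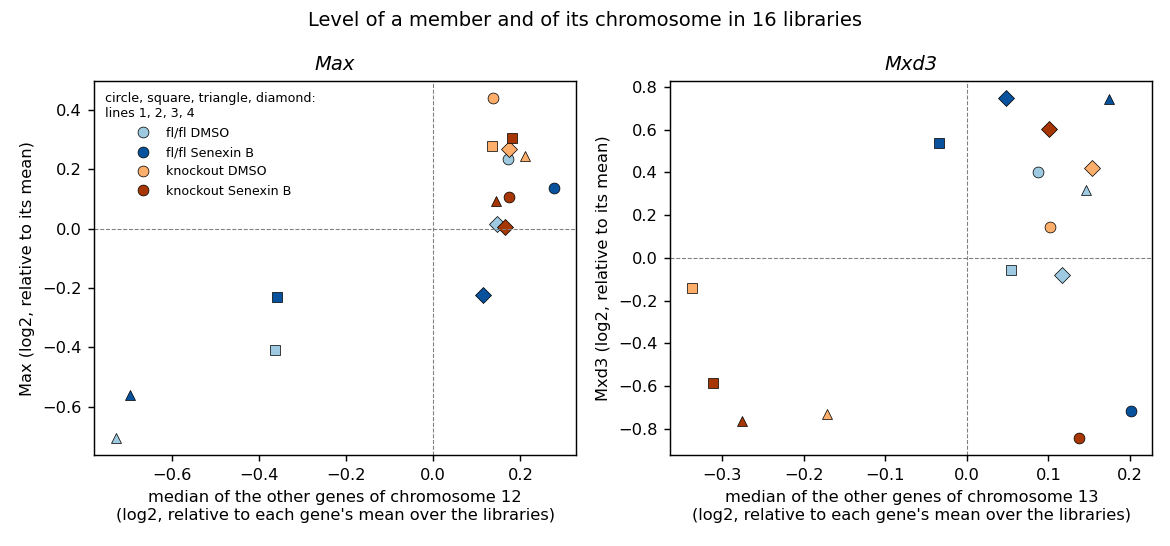
Level of Max (left) and Mxd3 (right) in 16 libraries against the median of the other genes of their chromosome, both as log2 relative to the mean over the libraries, coloured by group with the line given by marker shape. The libraries of fl/fl lines 2 and 3 lie apart at the lower left for Max, and those of knockout lines 2 and 3 at the left for Mxd3.

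Neither Mlx nor Mga differed beyond the spread between lines in any comparison. Mlx was 35.3 ± 2.16 CPM in knockout DMSO and 36.1 ± 4.72 CPM in fl/fl DMSO, and its 6 log2 differences lay between -0.12 and 0.03 without a block. Its 385 exonic bases shared with Psmc3ip on the opposite strand make its counts uncertain. Mga was 192 ± 33.3 CPM in knockout DMSO and 173 ± 56.4 CPM in fl/fl DMSO. Its response differed between lines: fl/fl line 1 was at 255.9 CPM without and 256.01 CPM with the inhibitor, line 2 at 160 and 97.6 CPM and line 3 at 140 and 183 CPM.

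The genes whose pattern was most like that of a member over the 16 libraries were found by Pearson's r of log2 CPM among the 14164 genes. Libraries of a line share that line, so these are descriptions. Those most like Max included Trmt5 (r = 0.94), Rnf113a2, Dtd2 and Gon7 (r = 0.91), all of them on chromosome 12, which holds 3.54% of the genes. The 5 most like Mxd4 were Cisd3 (r = 0.89), Ganc, Mlxip, Tgfb3 and Zfp597 (r = 0.82). Mlxip encodes MondoA, the partner of MLX. It was 180 ± 28.2 CPM in fl/fl DMSO and 141 ± 22.7 CPM in fl/fl Senexin B, with a blocked log2 fold change of -0.34 (edgeR adjusted p = 0.473). The 5 most like Myc were Adat1 (r = 0.92), Zfp683, Zfp870, Rsl1d1 and 2610044O15Rik8 (r = 0.89), on 4 chromosomes other than that of Myc.

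Known targets and partners of the network, taken from lists of textbook members, gave no call in any of the 6 comparisons with or without the block. Of 30 genes that MYC activates, 23 were higher in knockout than in fl/fl lines in DMSO, with a median log2 difference of 0.16 against 0.00 over all genes. The amino acid transporter Slc7a5 (-0.98, edgeR adjusted p = 0.897) and the serine enzyme Shmt2 (-0.64, edgeR adjusted p = 0.897) were the furthest in the other direction. With Senexin B 23 of the 30 were higher in fl/fl lines (median 0.14, against 0.01 over all genes) and 13 in knockout lines (median -0.02, against -0.01). Apex1, a DNA repair enzyme, was 17.04 ± 1.07 CPM in fl/fl DMSO and 29.1 ± 5.49 CPM in fl/fl Senexin B, a blocked log2 fold change of 0.77 (edgeR adjusted p = 0.155). The response was lower in knockout than in fl/fl lines for 24 of the 30, with a median interaction of -0.15 against 0.00 over all genes. Between genotypes with Senexin B present, 15 of the 30 were higher in knockout lines. The genotype difference in DMSO, the fl/fl response and the interaction all use the same fl/fl DMSO libraries. Their counts are thus not separate results, and the target genes are not independent of each other. All 5 genes that MYC represses were higher with Senexin B in knockout lines (median 0.32, against -0.01 over all genes). The stress genes Ndrg1 (0.69, edgeR adjusted p = 0.325) and Gadd45a (0.55, edgeR adjusted p = 0.288) led them. In fl/fl lines 3 of the 5 were higher with Senexin B (median 0.03). In DMSO 2 of the 5 were higher in knockout than in fl/fl lines (median -0.32). The cell cycle inhibitor Cdkn1a was 96.0 ± 26.1 CPM in knockout DMSO and 165 ± 55.5 CPM in fl/fl DMSO, a log2 difference of -0.78 (edgeR adjusted p = 0.897).

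**Figure D5:**
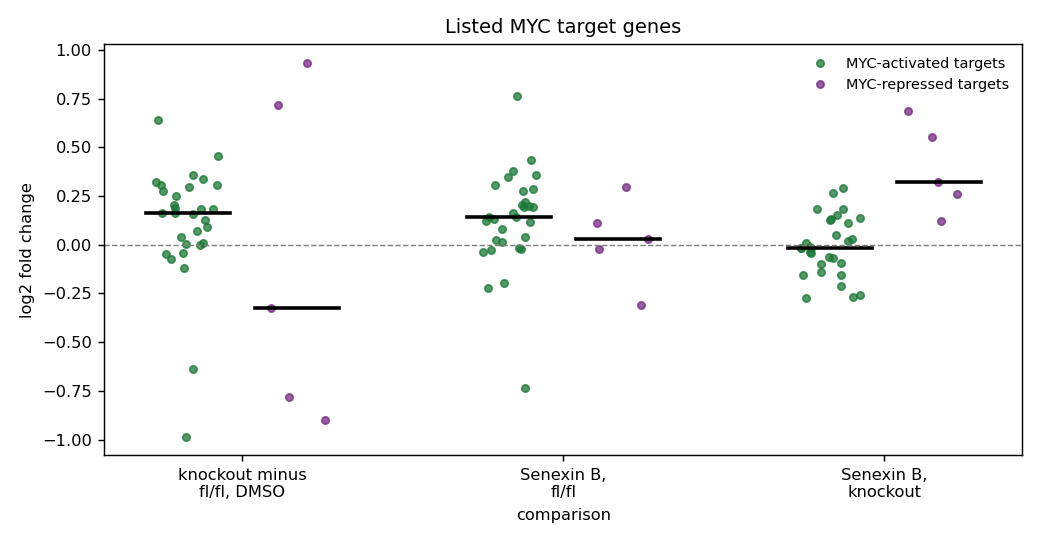
Log2 fold changes of 30 MYC-activated and 5 MYC-repressed genes, 1 point per gene with a bar at the median, for genotype in DMSO and for Senexin B in fl/fl and in knockout lines (line as block). The activated genes have medians of 0.16, 0.14 and -0.02, where the comparisons at 0.16 and 0.14 share the fl/fl DMSO libraries. The 5 repressed genes are all above 0 with Senexin B in knockout lines, and 3 of the 5 are in fl/fl lines.

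None of 6 SIN3 corepressor genes, 9 MYC cofactors, 8 genes of MYC protein turnover and 6 partners of MGA was called. Among the turnover genes, the kinase Pim1 was 310 ± 7.99 CPM in fl/fl DMSO and 193 ± 93.6 CPM in fl/fl Senexin B (blocked log2 fold change -0.78, edgeR adjusted p = 0.285), and the ubiquitin ligase subunit Skp2 was at -0.39 in knockout lines (edgeR adjusted p = 0.267). Of the other family members Mycl stayed under 4 CPM and Mlxipl under 1 CPM in every library. Txnip, the best known MondoA target, was 539 ± 211 CPM in fl/fl DMSO and 398 ± 97.8 CPM in fl/fl Senexin B, within the spread between lines.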

How the data were processed

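RNA from 16 libraries of 8 lines was prepared with a Lexogen SENSE mRNA kit and sequenced as 50 bp single-end reads. The authors trimmed reads (Trimmomatic), mapped them to GRCm38 (STAR) and obtained a read count for each GENCODE M13 gene from featureCounts 1.5.1, without regard to strand per the file headers, and deposited whole-number counts. Those deposited counts were the starting point here, and the authors' gene models were identical in all files.

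Counts were fitted with edgeR 4.0.16 in R 4.3.3 (filterByExpr, TMM, robust quasi-likelihood test), without a block as the main design and with the line as a block. DESeq2 1.42.0 was an alternative. Exact permutation and sign-flip tests used log2(CPM + 1) in scipy 1.17.1. Same-numbered libraries deviated together within a genotype (r from 0.586 to 0.777 in fl/fl and from 0.773 to 0.870 in knockout lines) but not in every pair across genotypes (r from -0.153 to 0.270 in DMSO and from -0.138 to 0.415 with Senexin B), so the number was taken as the line within a genotype only. p-values measure the spread between these lines. The fits were tested on simulated data, in which all lines of the genotype comparison shared the same mean levels. That test thus does not cover the spread between lines seen here.

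The members and lists were chosen with earlier results of these data known. All members were named, and from each other list the called genes and, per comparison, up to 2 genes with the smallest p in each direction. For Myc, Max and each called member, the 5 genes of highest Pearson r were named, except for an item that is not reported here. The chromosome levels, the correlation of responses across genotypes and their difference within line numbers, the alternatives of the blocked fit and the fits without line 1 were added after seeing the data. The other alternatives were listed in advance of the fits made here. Depth per library limits the precision of low genes: Mxd3 had 105 to 421 counts and Mxd1 156 to 425.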

Additional observations from a re-analysis of the deposited data

Results flagged for a closer look

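In 5 of the 40 groups of 4 libraries formed by the 10 members, 1 library lay far from the other 3 by Dixon's test at the 95% level, which chance does in about 1 in 20 groups. Mxd4 did so in 2 groups: knockout line 4 in DMSO was lowest at 47.9 CPM, where the other 3 knockout lines were at 99.99 to 105.4 CPM, and fl/fl line 2 with Senexin B was highest at 45.6 CPM, where the other 3 were at 20.6 to 24.6 CPM. Fl/fl line 2 was also the highest fl/fl line for Mxd4 in DMSO, at 92.4 CPM. Max was highest in knockout line 1 in DMSO at 188.5 CPM. Mxd3 was highest in knockout line 4 with Senexin B at 20.3 CPM. Mlx was highest in fl/fl line 2 in DMSO at 43.1 CPM.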

How the results depend on the processing

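With the replicate block, 0 genes were called for genotype in DMSO, 45 with Senexin B in fl/fl lines, 7 in knockout lines and 134 over 8 lines, and 1 network member (Mxd4) was called in fl/fl lines; the block changed no other member's call. It turned the log2 fold change of Myc (-0.21) and Max (0.0081) in fl/fl lines and of Mxd3 (-0.068) and Mga (-0.028) over 8 lines, all near 0. DESeq2 called 32 genes for genotype in DMSO, 10 with Senexin B, 19 for Senexin B in fl/fl lines and 17 over 8 lines. Asking for at least 10 counts in every library gave 0 genes for genotype in DMSO and 1 over 8 lines. No filter gave 1 gene for genotype with Senexin B, 3 for Senexin B in fl/fl lines and a log2 fold change of -0.0028 for Mxi1 in knockout lines. All 16 libraries in one fit gave 1 gene for genotype with Senexin B. The causes were not tested. Within the blocked fit, DESeq2 called 180 genes in fl/fl lines (294 without a fold limit) and 77 in knockout lines (193), and over 8 lines 759 genes and 2 members without a fold limit. Without a fold limit edgeR called 373 genes and 1 member over 8 lines. Without line 1 of both genotypes it called 361 genes, or 1055 genes and 1 member without a fold limit.

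Leaving out 1 replicate gave 0 to 0 genes for genotype in DMSO and 0 to 5 over 8 lines. In the blocked fit it gave 0 to 538 genes and 0 to 1 members in fl/fl lines (0 without line 2, 538 without line 1, 9 without line 3), 0 to 31 in knockout lines (31 without line 1, 0 without line 2 or line 4, 2 without line 3), and 80 to 178 genes and 0 to 1 members over 8 lines (80 without fl/fl line 3, 88 without fl/fl line 4). Members whose sign turned had log2 fold changes as follows. For genotype in DMSO, Mycn ran from -0.22 to 0.55, Mxi1 from -0.23 to 0.15 and Mlx from -0.076 to 0.057. With Senexin B, Myc ran from -0.24 to 1.04, Mycn from -0.14 to 0.64, Mxd1 from -0.00010 to 0.29, Mxi1 from -0.32 to 0.15, Mnt from -0.021 to 0.10 and Mlx from -0.21 to 0.092. For the inhibitor in fl/fl lines, Myc ran from -0.75 to 0.38, Mycn from -0.23 to 0.74, Max from -0.16 to 0.14, Mxi1 from -0.17 to 0.28, Mlx from -0.19 to 0.12 and Mga from -0.29 to 0.23. In knockout lines, Myc ran from -0.58 to 0.13, Mxi1 from -0.21 to 0.17 and Mga from -0.13 to 0.18. Over 8 lines, Myc ran from -0.42 to 0.11, Mxd3 from -0.19 to 0.12, Mxi1 from -0.074 to 0.14, Mlx from -0.13 to 0.014 and Mga from -0.11 to 0.13. For the interaction, Myc ran from -0.68 to 0.61, Mycn from -0.40 to 0.58, Mxi1 from -0.30 to 0.18, Mlx from -0.19 to 0.12 and Mga from -0.18 to 0.35.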
